A study of Mus musculus with 9 samples.

Results

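The claudins examined here were Cldn1, Cldn2, Cldn3, Cldn4, Cldn7, Cldn8, Cldn10, Cldn11, Cldn12 and Cldn23, 10 of the 31274 gene entries in an RNA-Seq table of the mouse uterus. They were chosen by symbol, as claudins of epithelial and other cells, out of 25 entries named Cldn and a number. Earlier results of these data were known when they were chosen. Cldn5 was left out because it belongs to endothelial cells. Cldn1, Cldn3, Cldn4, Cldn7, Cldn8 and Cldn11 were grouped as 6 sealing claudins, and Cldn2, Cldn10, Cldn12 and Cldn23 as 4 others.

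Each of 9 libraries came from the whole uterus of 1 C57BL/6 mouse on pseudopregnancy day 4.5, after mating to a vasectomized male, so that no embryo was present. The 4 Wnk1f/f mice carried Wnk1 alleles with a floxed exon 2 and were the controls. The 5 Wnk1d/d mice carried the same floxed alleles together with PGR-Cre, a Cre recombinase expressed from the progesterone receptor gene, which removes that exon. PGR-Cre also recombines in the ovary and pituitary, and endothelial and immune cells, which lack the progesterone receptor, keep Wnk1. The labels give no ages, and the comparison asked how loss of the kinase WNK1 changed uterine transcripts at the time of receptivity.

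Claudins are small membrane proteins that form the strands of tight junctions, the seal between neighboring epithelial cells. Some of them close the space between cells to ions, whereas others form pores through which selected ions or water pass, so the set of claudins in an epithelium sets what can leak across it. In the uterus, the tight junctions of the luminal epithelium separate the fluid in which an embryo floats from the stroma, and that epithelium is remodeled when an embryo attaches. Kinases of the WNK family have been studied in the kidney for their effects on claudins and on chloride transport.

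The members were scattered over the genome in mm10 (GENCODE release M21), with 1 close pair. Cldn3 lies at chr5:134986214-134987472 on the plus strand and Cldn4 at chr5:134945119-134946934 on the minus strand, both with a single exon and 39279 bases apart. Cldn7 lies at chr11:69964779-69967885 (plus strand), Cldn10 at chr14:118787908-118875489 (plus strand) and Cldn11 at chr3:31149920-31164324 (plus strand). Cldn1 at chr16:26356642-26371841 and the single-exon Cldn8 at chr16:88560828-88563183 share a chromosome and the minus strand. Cldn12 lies at chr5:5489537-5514958 and Cldn23 at chr8:35824712-35826559, both on the minus strand, and Cldn2 at chrX:139800828-139811386 on the plus strand. The 3′ end of Cldn3 overlaps the annotated antisense gene Wbscr25, and the library kit did not keep strand, so that reads from the shared stretch could not be assigned to one of them.

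RefSeq promoters (GRCm38.p6, 250 bases before to 50 after a transcript start) matched 8 of the 10 members, all but Cldn8 and Cldn23, in 12 windows. The windows of the members with the highest FPKM and of those whose transcripts changed are shown, with both starts of Cldn7 and Cldn10, 5′ to 3′ on the gene's strand. Capitals mark the E-box CACCTG or its complement CAGGTG, letters bound by repressors of the Snail and ZEB families that are known for acting on epithelial junction genes.
Cldn3, chr5:134985964-134986263, plus strand: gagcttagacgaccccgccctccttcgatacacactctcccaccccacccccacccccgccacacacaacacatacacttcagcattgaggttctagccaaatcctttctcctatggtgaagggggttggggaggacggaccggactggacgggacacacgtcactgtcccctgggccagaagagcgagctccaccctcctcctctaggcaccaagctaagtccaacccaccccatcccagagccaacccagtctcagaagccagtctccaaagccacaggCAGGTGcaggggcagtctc
Cldn4, chr5:134946885-134947184, minus strand: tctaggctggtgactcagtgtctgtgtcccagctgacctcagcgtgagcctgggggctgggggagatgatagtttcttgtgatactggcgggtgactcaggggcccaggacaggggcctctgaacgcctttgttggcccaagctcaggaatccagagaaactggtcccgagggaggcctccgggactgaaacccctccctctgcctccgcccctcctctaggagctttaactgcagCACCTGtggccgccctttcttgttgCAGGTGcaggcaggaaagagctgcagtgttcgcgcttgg
Cldn7, upstream start, chr11:69964529-69964828, plus strand: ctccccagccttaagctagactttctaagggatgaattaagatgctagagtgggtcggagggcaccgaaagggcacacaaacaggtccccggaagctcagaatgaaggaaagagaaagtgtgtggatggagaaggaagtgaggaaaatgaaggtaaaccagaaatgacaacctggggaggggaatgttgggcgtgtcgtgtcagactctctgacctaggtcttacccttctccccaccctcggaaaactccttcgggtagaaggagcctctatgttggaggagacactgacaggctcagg
Cldn7, downstream start, chr11:69965171-69965470, plus strand: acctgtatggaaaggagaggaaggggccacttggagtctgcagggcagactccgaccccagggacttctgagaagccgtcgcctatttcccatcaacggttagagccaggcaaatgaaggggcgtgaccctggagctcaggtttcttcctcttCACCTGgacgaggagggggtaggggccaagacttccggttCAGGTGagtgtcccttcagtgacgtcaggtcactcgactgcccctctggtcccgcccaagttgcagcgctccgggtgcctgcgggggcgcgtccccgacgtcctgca
Cldn10, upstream start, chr14:118787621-118787920, plus strand: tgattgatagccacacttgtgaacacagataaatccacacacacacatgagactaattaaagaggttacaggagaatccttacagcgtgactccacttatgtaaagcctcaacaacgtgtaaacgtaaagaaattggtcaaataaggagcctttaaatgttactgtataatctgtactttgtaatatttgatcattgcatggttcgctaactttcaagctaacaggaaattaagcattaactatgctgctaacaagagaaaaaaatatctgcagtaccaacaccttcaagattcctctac
Cldn10, downstream start, chr14:118854700-118854999, plus strand: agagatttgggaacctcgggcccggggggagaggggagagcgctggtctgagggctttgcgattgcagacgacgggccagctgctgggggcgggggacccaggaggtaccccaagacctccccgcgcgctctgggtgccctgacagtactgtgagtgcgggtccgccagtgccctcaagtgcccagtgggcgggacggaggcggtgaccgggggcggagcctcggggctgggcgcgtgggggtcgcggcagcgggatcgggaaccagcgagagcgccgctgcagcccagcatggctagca
Cldn1, chr16:26371790-26372089, minus strand: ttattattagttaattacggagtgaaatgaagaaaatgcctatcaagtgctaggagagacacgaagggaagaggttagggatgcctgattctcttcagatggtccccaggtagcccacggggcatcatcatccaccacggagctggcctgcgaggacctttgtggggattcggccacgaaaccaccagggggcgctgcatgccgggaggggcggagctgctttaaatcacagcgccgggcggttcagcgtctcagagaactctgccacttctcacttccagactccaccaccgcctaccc
Cldn11, chr3:31149670-31149969, plus strand: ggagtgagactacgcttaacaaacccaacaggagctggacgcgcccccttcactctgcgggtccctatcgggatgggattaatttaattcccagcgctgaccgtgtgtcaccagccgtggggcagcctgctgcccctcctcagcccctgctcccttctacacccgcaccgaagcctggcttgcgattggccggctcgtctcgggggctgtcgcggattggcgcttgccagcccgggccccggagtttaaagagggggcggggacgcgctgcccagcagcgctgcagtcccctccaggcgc

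Of the 8 members with a promoter, 3 held the E-box on either strand, namely Cldn3 with 1 copy, Cldn4 with 2 and the downstream start of Cldn7 with 2. Counted from the transcript start at 0, the first bases of these copies lay at 31 in Cldn3, at -14 and 11 in Cldn4 and at -97 and -57 in Cldn7. Counted by window, 3 of 12 held it, beside 20.2% of all 32851 RefSeq promoters of the same length. The GC box GGGCGG, on either strand, was present in 8 of the 12 windows, beside 35.7% of all promoters, with 3 copies in the downstream Cldn10 promoter. The forkhead core GTAAAC, on either strand, was present in 4 of the 12, beside 7.89% of all promoters, namely the upstream windows of Cldn7 and Cldn10 and 2 of Cldn12. The 3 windows of Cldn12 overlap one another, so these counts are not of separate sequences. The 2 Cldn10 promoters belong to alternative first exons and differed in composition, with 36% G and C upstream and 72% downstream. The motifs were picked after the sequences had been read, and a match is a description of the letters only.

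FPKM, a count of fragments scaled to exon length and library size, can be compared between genes. In Wnk1f/f uteri Cldn3, Cldn10 and Cldn7 were abundant, with means of 122 to 362 FPKM, Cldn4 and Cldn23 were intermediate at 58.4 and 49.5 FPKM, and Cldn12, Cldn8, Cldn1, Cldn11 and Cldn2 were low, with means of 0.193 to 7.81 FPKM. The order of mean FPKM in Wnk1f/f was Cldn3, Cldn10, Cldn7, Cldn4, Cldn23, Cldn12, Cldn8, Cldn1, Cldn11 and Cldn2. Within it, 3 neighboring pairs had overlapping ranges, namely Cldn3 and Cldn10, Cldn4 and Cldn23, and Cldn8 and Cldn1. In Wnk1d/d the order was Cldn10, Cldn3, Cldn7, Cldn23, Cldn4, Cldn12, Cldn1, Cldn8, Cldn11 and Cldn2. Each of the 3 exchanged pairs overlapped in Wnk1d/d as well, as did Cldn11 and Cldn2, so no exchange of rank exceeded the spread between mice.

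**Figure D1:**
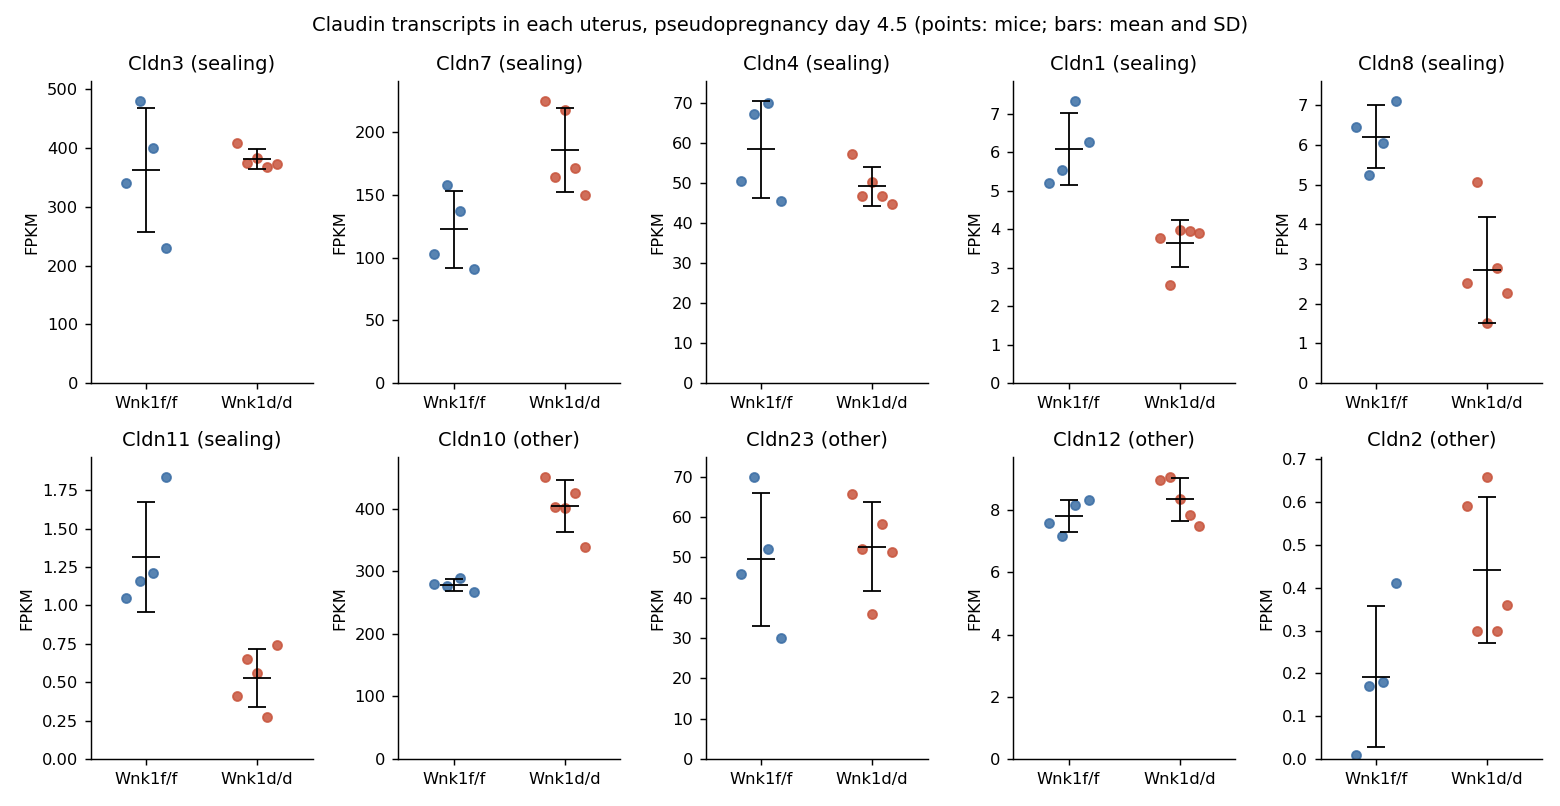
FPKM of the 10 claudins in each mouse (vertical axes, linear and starting at 0, with a scale of their own) for 4 Wnk1f/f and 5 Wnk1d/d uteri, with bars for mean and SD. The points of the 2 genotypes separate for Cldn1, Cldn8, Cldn11 and Cldn10 and overlap for the other 6 claudins.

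Differences between the genotypes were tested with limma on log2(FPKM + 1), with Benjamini-Hochberg adjustment over the 14728 genes with a mean above 1 FPKM in at least 1 genotype. Of the 10 claudins 9 were tested, and 5 had an adjusted p under 0.05, against 22.1% of all tested genes. Cldn7 and Cldn10 rose (2 claudins, against 11.1% of all tested genes), and Cldn1, Cldn8 and Cldn11 fell (3 claudins, against 11%). With a change of at least 1.5 times in mean FPKM as a further criterion, Cldn7 stayed among the genes that rose (5.09% of all tested genes) and Cldn1, Cldn8 and Cldn11 among those that fell (5.18%), whereas Cldn10 missed the ratio. The libraries of the genotypes did not overlap for 4 claudins, against 19.9% of all tested genes. Cldn11 passed the filter only through its level in Wnk1f/f, so a fall was built into its entry. The median log2 fold change of the 9 was 0.08, beside 0.0030 over all genes tested.

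Cldn8, which fell, is a sealing claudin known from the renal collecting duct, where it works with Cldn4 in the handling of chloride. Its FPKM was 6.45, 5.23, 6.04 and 7.11 in the Wnk1f/f mice and 2.53, 5.06, 1.51, 2.89 and 2.28 in the Wnk1d/d mice. All Wnk1d/d libraries lay below all Wnk1f/f libraries, but replicate 2 of Wnk1d/d, at 5.06, came within reach of the lowest control at 5.23. The means were 6.21 ± 0.787 FPKM (SD, n = 4) and 2.85 ± 1.33 FPKM (SD, n = 5), a log2 fold change of -0.96 (standard error 0.22, limma adjusted p = 0.0160). The claudin thus fell to 0.460 of its control level on the linear scale.

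Cldn1, the sealing claudin best known from the barrier of the skin, measured 5.20, 5.53, 7.33 and 6.25 FPKM in Wnk1f/f and 3.78, 2.55, 3.98, 3.95 and 3.89 FPKM in Wnk1d/d. Of the 5 Wnk1d/d mice, 4 lay between 3.78 and 3.98, and replicate 2 lay below them. The genotypes did not overlap, with means of 6.08 ± 0.943 (SD, n = 4) and 3.63 ± 0.609 (SD, n = 5) and a log2 fold change of -0.61 (standard error 0.13, limma adjusted p = 0.0120). Replicate 2 of Wnk1d/d was therefore the mouse with the least Cldn1 and the most Cldn8 of its genotype.

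Cldn11, which seals the myelin sheath of the central nervous system and the Sertoli cell barrier of the testis, was scarce. It measured 1.05, 1.16, 1.21 and 1.84 FPKM in Wnk1f/f and 0.41, 0.65, 0.56, 0.27 and 0.74 FPKM in Wnk1d/d. The groups did not overlap and the means were 1.32 ± 0.356 (SD, n = 4) and 0.526 ± 0.188 (SD, n = 5). The ratio of means was 0.400, and the log2 fold change was -0.60 (standard error 0.14, limma adjusted p = 0.0176), which understates the change of a gene this low. Without any filter on low FPKM, the limma adjusted p of Cldn11 was 0.0173. Of the Schwann cell markers, which could mark nerve in the uterus, 2 of 5 were tested and 1 of these fell, beside 11% of all tested genes. The summed FPKM of that list ranged from 6.82 to 8.98 in Wnk1f/f and from 5.07 to 7.54 in Wnk1d/d, and its part in the Cldn11 result was not tested.

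Cldn7 is a sealing claudin of simple epithelia that also sits along the lateral membrane, where it binds the adhesion protein Epcam. Its FPKM was 103.20, 158.09, 136.95 and 91.23 in Wnk1f/f and 224.77, 164.05, 217.09, 170.98 and 150.05 in Wnk1d/d. Of the 5 Wnk1d/d mice, 4 exceeded every control, and replicate 5 lay below the highest control. The means were 122 ± 30.7 (SD, n = 4) and 185 ± 33.4 (SD, n = 5), a ratio of 1.52 and a log2 fold change of 0.61 (95% interval 0.20 to 1.02, limma adjusted p = 0.0404). This call was the least firm of the 5. It was kept in 4 of the 9 fits that left out a library and in 10 of 21 alternatives in all, and the adjusted p was 0.104 without Wnk1f/f replicate 4, 0.0967 without Wnk1f/f replicate 1, 0.0935 without Wnk1d/d replicate 3, 0.0811 without Wnk1d/d replicate 1 and 0.0633 without Wnk1d/d replicate 4.

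Cldn3 and Cldn4, both sealing claudins and receptors for the Clostridium perfringens enterotoxin, did not pass the test. Cldn3 measured 339.83, 480.18, 399.63 and 229.57 FPKM in Wnk1f/f and 409.23, 373.63, 382.79, 368.05 and 372.58 FPKM in Wnk1d/d. All Wnk1d/d mice lay inside the control range, and the spread was wider among the controls, with means of 362 ± 106 (SD, n = 4) and 381 ± 16.5 (SD, n = 5). The log2 fold change was 0.12 (95% interval -0.28 to 0.53, limma adjusted p = 0.647), and it was -0.08 without Wnk1f/f replicate 4, the library with the least Cldn3.

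Cldn4 measured 50.57, 67.32, 70.04 and 45.49 FPKM in Wnk1f/f and 57.21, 46.83, 50.18, 46.76 and 44.70 FPKM in Wnk1d/d. The ranges overlapped, with means of 58.4 ± 12.2 (SD, n = 4) and 49.1 ± 4.92 (SD, n = 5). The log2 fold change was -0.23 (95% interval -0.53 to 0.08, limma adjusted p = 0.244).

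Among the other claudins Cldn10 rose. Cldn10 forms paracellular pores whose ion preference depends on the first exon, an anion pore or a cation pore, and the gene-level FPKM does not separate the isoforms that start at the 2 promoters shown above. Its FPKM was 279.85, 276.21, 288.62 and 266.96 in Wnk1f/f and 451.22, 402.45, 400.48, 425.35 and 338.82 in Wnk1d/d. Every Wnk1d/d mouse lay above every control. The means were 278 ± 8.97 (SD, n = 4) and 404 ± 41.7 (SD, n = 5), a ratio of 1.45 and a log2 fold change of 0.53 (95% interval 0.33 to 0.73, limma adjusted p = 0.00637). It was called in all 9 fits that left out a library.

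Cldn23, a less studied claudin of intestinal and other epithelia, measured 45.77, 70.05, 52.13 and 29.98 FPKM in Wnk1f/f and 65.71, 52.19, 35.88, 58.15 and 51.33 FPKM in Wnk1d/d. The Wnk1d/d values lay inside the control range, with means of 49.5 ± 16.6 (SD, n = 4) and 52.7 ± 11 (SD, n = 5). The log2 fold change was 0.12, with a wide 95% interval of -0.41 to 0.65 (limma adjusted p = 0.729), and it was -0.09 without Wnk1f/f replicate 4.

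Cldn12, linked to paracellular calcium transport, measured 7.59, 7.17, 8.16 and 8.31 FPKM in Wnk1f/f and 8.97, 9.08, 8.36, 7.84 and 7.48 FPKM in Wnk1d/d. It did not pass the test, at 7.81 ± 0.526 (SD, n = 4) and 8.35 ± 0.695 (SD, n = 5). The 95% interval of its log2 fold change of 0.08 ran from -0.08 to 0.25 (limma adjusted p = 0.435).

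Cldn2, which forms a pore for cations and water, was close to absent at 0.01, 0.17, 0.18 and 0.41 FPKM in Wnk1f/f and 0.59, 0.30, 0.66, 0.30 and 0.36 FPKM in Wnk1d/d. It did not reach the filter in either genotype. Its mean log2(FPKM + 1) was 0.28 higher in Wnk1d/d, and an exact two-sided permutation test over all 126 splits gave p = 0.0714, where 0.00794 is the smallest p that 4 against 5 mice allow. The genotypes overlapped, since 2 Wnk1d/d mice lay above all the controls and the other 3 lay below the highest control.

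**Figure D2:**
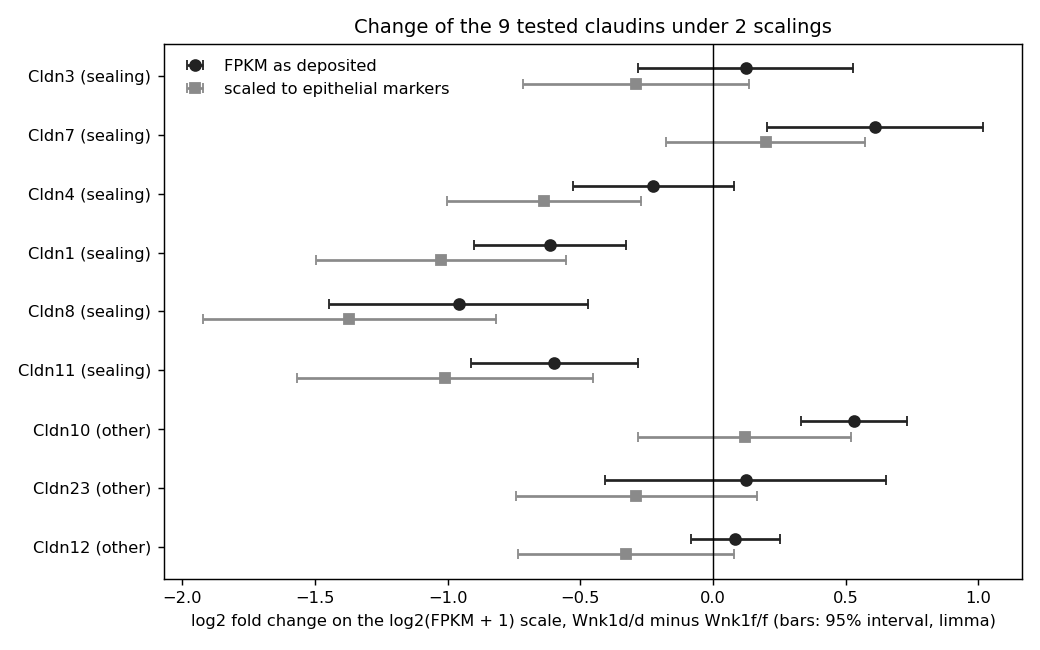
Log2 fold change of the 9 tested claudins on the log2(FPKM + 1) scale, Wnk1d/d minus Wnk1f/f (horizontal axis), with 95% intervals from limma, for FPKM as deposited (circles) and after scaling each library to its epithelial markers (squares). Cldn1, Cldn8 and Cldn11 lie to the left of 0 under both, whereas the intervals of Cldn7 and Cldn10 reach 0 after scaling.

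Of the 6 sealing claudins 3 fell and 1 rose, beside 11% of all tested genes that fell and 11.1% that rose, and their median log2 fold change was -0.41. Without Cldn11, whose fall the filter had built in, 2 of 5 fell and 1 rose, and the median was -0.23. Of the 3 other claudins tested 1 rose, beside the same 11.1%, and the median was 0.12. Of the fold changes, 3 of 5 lay below 0 for sealing claudins without Cldn11 and 0 of 3 for the others, beside 7287 of 14728 over all genes. Those of Cldn12 (0.08) and Cldn23 (0.12) were near 0 and turned to -0.33 and -0.29 after scaling to epithelial markers. No test was made of the difference between the 2 classes. The 3 sealing claudins that fell were all of low abundance, with control means of 6.21, 6.08 and 1.32 FPKM, and the one that rose was abundant at 122 FPKM.

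Each class was also described in every library, by the sum of FPKM and by the mean of log values. The summed FPKM of sealing claudins was 557 ± 145 (SD, n = 4) in Wnk1f/f and 623 ± 52.2 (SD, n = 5) in Wnk1d/d, with overlapping ranges of 381 to 718 and 574 to 698. In their mean log2(FPKM + 1) every gene weighs the same. This mean includes Cldn11, whose fall the filter had built in, so no separation of the genotypes is read from it. For the other claudins the summed FPKM was higher in every Wnk1d/d mouse. It was 306 to 354 in Wnk1f/f and 398 to 526 in Wnk1d/d, of which Cldn10 made up most. Their mean of log values gives Cldn2, which did not reach the filter, the same weight as Cldn10, so no separation of the genotypes is read from it. These are descriptions over members chosen by name with earlier results of these data known, and were not tested.

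The summed FPKM of all 10 claudins ranged from 687 to 1071 in Wnk1f/f (mean 892 ± 166, SD, n = 4) and from 972 to 1224 in Wnk1d/d (mean 1088 ± 91.1, SD, n = 5), and the ranges overlapped. Cldn3 made up 40.0% ± 4.78 of that sum in Wnk1f/f and 35.2% ± 1.92 in Wnk1d/d. Cldn10 made up 31.9% ± 5.55 and 37.1% ± 1.67. Cldn7 made up 12.3% to 14.8% of the sum in Wnk1f/f and 15.4% to 19.7% in Wnk1d/d, and this share did not overlap between the genotypes.

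**Figure D3:**
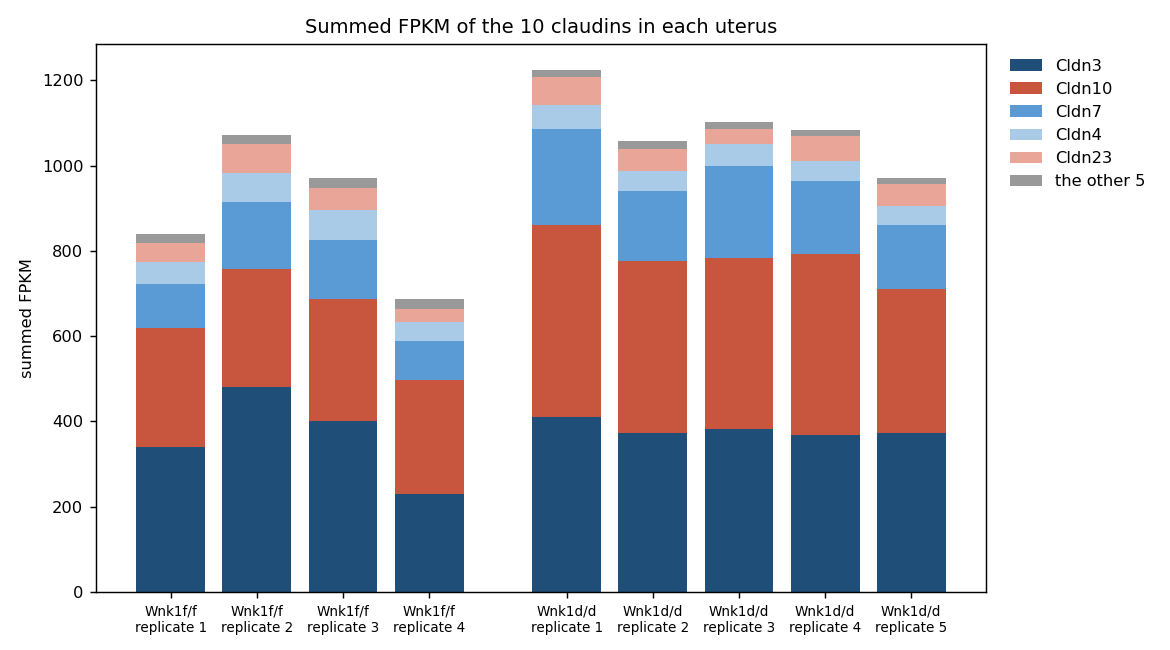
Summed FPKM of the 10 claudins in each of the 9 uteri (vertical axis, starting at 0), stacked by gene, with the 5 least abundant claudins drawn together. The bars run from 687 to 1071 in Wnk1f/f and from 972 to 1224 in Wnk1d/d, and Cldn3, Cldn10 and Cldn7 fill most of every bar.

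Ratios within a library do not depend on how libraries are scaled, and a few were taken after the values had been seen, as descriptions without a test. The ratio of Cldn7 to Cldn4 was 2.04, 2.35, 1.96 and 2.01 in Wnk1f/f and 3.93, 3.50, 4.33, 3.66 and 3.36 in Wnk1d/d. The 2 genotypes stood apart, at 2.09 ± 0.177 (SD, n = 4) and 3.75 ± 0.383 (SD, n = 5), although Cldn4 alone overlapped and Cldn7 alone overlapped. The ratio of Cldn10 to Cldn3, the most abundant pore-forming and sealing claudins, was 0.824, 0.575, 0.722 and 1.16 in Wnk1f/f and 1.10, 1.08, 1.05, 1.16 and 0.909 in Wnk1d/d. The control with the most Cldn10 relative to Cldn3 was replicate 4, level with the top of the Wnk1d/d range.

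Bulk RNA of a whole uterus cannot tell more epithelial cells from more claudin RNA per epithelial cell. Of 14 epithelial markers 13 were tested and 4 rose, beside 11.1% of all tested genes, and the median log2 fold change of the list was 0.35. The 4, named after their values were seen, were the keratin Krt7 (104 to 193 FPKM), the transcription factors Grhl2 (10.8 to 17.4 FPKM) and Elf3 (25.5 to 52.9 FPKM) and the cadherin Cdh3 (4.04 to 7.38 FPKM). The summed FPKM of the list ranged from 714 to 1045 in Wnk1f/f and from 756 to 1361 in Wnk1d/d, and Krt18, its most abundant gene, went from 365 to 347 FPKM (limma adjusted p = 0.765). When each library was scaled to the mean log level of these markers, the median log2 fold change of all genes moved to -0.41, and 4.53% of the calls were higher in Wnk1d/d, against 50.2% before. On that scale the log2 fold changes were -1.03 for Cldn1 (limma adjusted p = 0.0052), -1.37 for Cldn8 (limma adjusted p = 0.00254) and -1.01 for Cldn11 (limma adjusted p = 0.0128), and Cldn4 was called as well (-0.64, limma adjusted p = 0.0156). Cldn7, at 0.20 (limma adjusted p = 0.365), and Cldn10, at 0.12 (limma adjusted p = 0.617), were not called on it.

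Epcam, an epithelial adhesion protein that binds Cldn7 and keeps it from degradation, was used in the same way after the data had been seen. Epcam itself measured 128.44, 139.31, 121.35 and 111.29 FPKM in Wnk1f/f and 156.66, 156.97, 140.00, 142.08 and 132.44 FPKM in Wnk1d/d (log2 fold change 0.22, limma adjusted p = 0.0872). The ratio of Cldn10 to Epcam was higher in every Wnk1d/d mouse, at 2.23 ± 0.195 (SD, n = 4) and 2.77 ± 0.199 (SD, n = 5). The ratio of Cldn7 to Epcam overlapped between the genotypes, at 0.972 ± 0.185 (SD, n = 4) and 1.27 ± 0.212 (SD, n = 5). The ratio of Cldn4 to Epcam was 0.394 to 0.577 in Wnk1f/f and 0.298 to 0.365 in Wnk1d/d, without overlap, and that of Cldn3 to Epcam overlapped at means of 2.86 and 2.63. Cldn1 and Cldn8 fell further against Epcam than by themselves, with mean ratios of 0.0492 and 0.0252 for Cldn1 and of 0.0504 and 0.0193 for Cldn8.

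**Figure D4:**
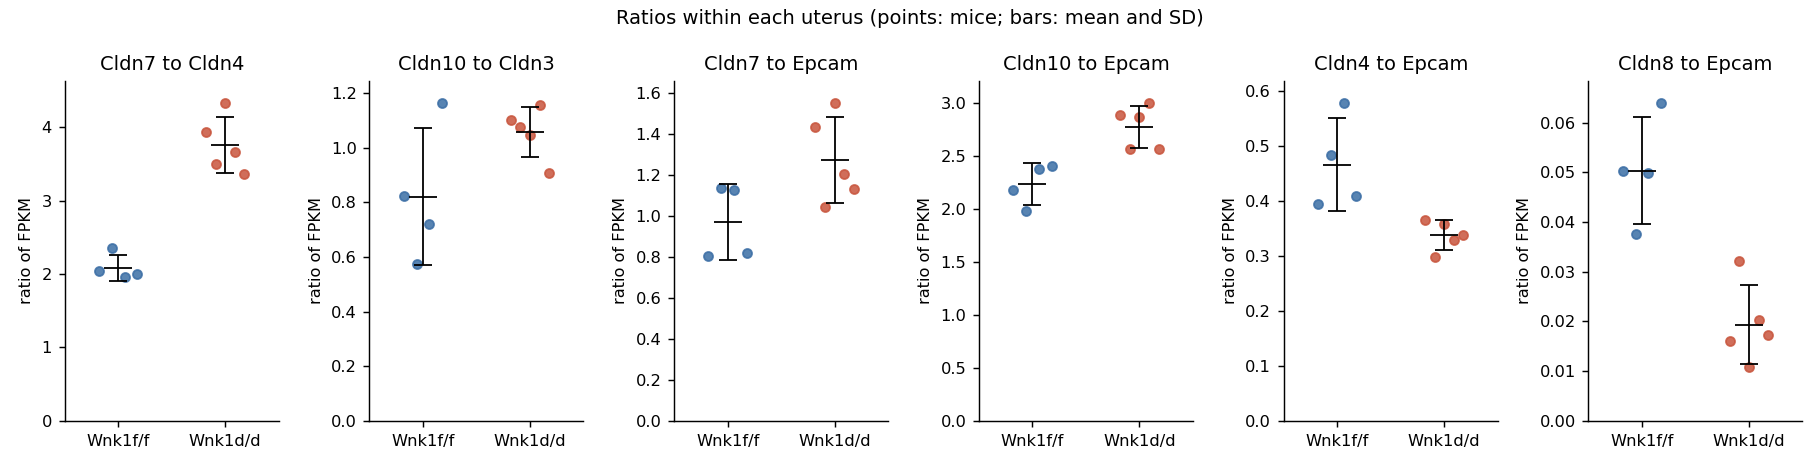
Ratios of FPKM within each uterus (vertical axes, linear and starting at 0) for 4 Wnk1f/f and 5 Wnk1d/d mice, with bars for mean and SD. The genotypes stand apart for Cldn7 to Cldn4, Cldn10 to Epcam, Cldn4 to Epcam and Cldn8 to Epcam, and overlap for Cldn10 to Cldn3 and Cldn7 to Epcam.

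Of the other proteins of the tight junction, 20 were tested, of which 1 rose and 4 fell, with a median log2 fold change of -0.03. Of all tested genes 11.1% rose and 11% fell. Scaffolds of the junction were among those that fell. Tjp1, encoding ZO-1, which ties claudins to actin, measured 46.79, 33.13, 42.92 and 44.40 FPKM in Wnk1f/f and 22.54, 38.91, 21.49, 24.62 and 23.91 FPKM in Wnk1d/d. Replicate 2 of Wnk1d/d lay within the control range and the other 4 mice lay below it (log2 fold change -0.67, limma adjusted p = 0.0241). Magi1, another scaffold with PDZ domains, fell from 16.6 to 10.9 FPKM (log2 fold change -0.57, limma adjusted p = 0.0267). Esam, an adhesion molecule of endothelial cells, fell from 115 to 75.8 FPKM (log2 fold change -0.63, limma adjusted p = 0.0280).

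Ildr1, an angulin of the corners at which cells of the epithelium meet, was the one that rose, from 6.14, 11.39, 11.98 and 6.87 FPKM in Wnk1f/f to 15.78, 13.83, 16.17, 12.86 and 13.43 FPKM in Wnk1d/d. Its groups did not overlap (log2 fold change 0.66, limma adjusted p = 0.0320). Igsf5, a junctional adhesion molecule, went from 9.81 to 11.9 FPKM (limma adjusted p = 0.0760), and Ocln, encoding occludin, from 15.9 ± 2.07 (SD, n = 4) to 13.3 ± 1.90 FPKM (SD, n = 5; limma adjusted p = 0.156), and neither passed the test.

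**Figure D5:**
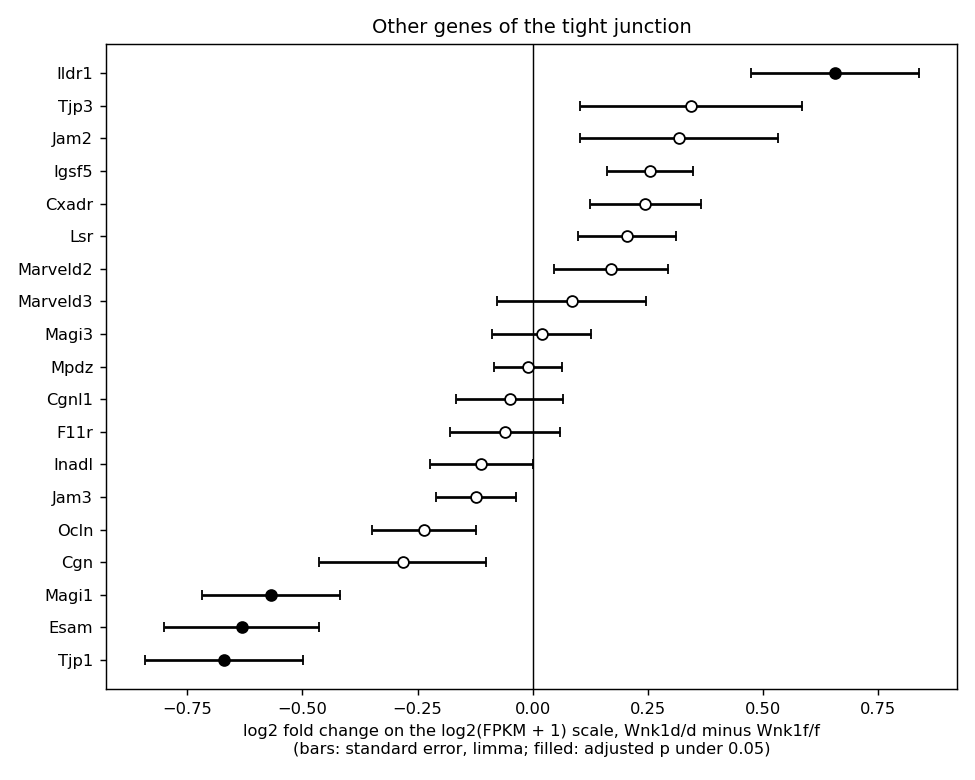
Log2 fold change on the log2(FPKM + 1) scale of the other tight junction genes reported here, Wnk1d/d minus Wnk1f/f (horizontal axis), with the standard error from limma. Filled circles mark an adjusted p under 0.05, which were Ildr1 above 0 and Magi1, Esam and Tjp1 below 0.

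Of 15 genes whose products bind or modify claudins, 14 were tested, 2 rose and 1 fell, shares near the 11.1% and 11% of all tested genes. Cd81 and Cd9 encode tetraspanins, membrane proteins found in complexes with claudins. Cd81 rose from 286 ± 27.5 (SD, n = 4) to 372 ± 37.9 FPKM (SD, n = 5; limma adjusted p = 0.0280) and Cd9 from 273 ± 25.5 (SD, n = 4) to 346 ± 35.9 FPKM (SD, n = 5; limma adjusted p = 0.0369). The gene that fell was Wnk1 itself, at 43.41 to 47.32 FPKM in Wnk1f/f and 29.85 to 33.94 FPKM in Wnk1d/d (limma adjusted p = 0.00167), and its FPKM counts all exons, including those outside the deletion. Klhl3, an adaptor of a ubiquitin ligase that binds claudin-8 and WNK kinases, went from 1.24 to 0.560 FPKM (limma adjusted p = 0.0710), and Wnk4, the family member studied most for claudins in the kidney, from 19.9 to 17.7 FPKM (limma adjusted p = 0.301).

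Markers of several other cell types differed between the genotypes beside the claudins. Among all tested genes, 11.1% rose and 11% fell. All 7 smooth muscle markers rose (summed FPKM 2968 to 6681 in Wnk1f/f and 7491 to 14104 in Wnk1d/d, led by Tagln), and 7 of 8 endothelial markers fell (435 to 471 and 180 to 355, led by Pecam1). Cldn5 was one of these, from 53.0 to 32.6 FPKM (limma adjusted p = 0.0166). Of 6 gland markers Sox9 rose and Prss28, Prss29 and Spink3 fell, the summed FPKM being 6602 to 10406 and 831 to 2734, led by Prss29. Of 8 stromal markers 5 fell and 2 rose, led by Vim, with sums of 2223 to 2584 and 2128 to 2624. Of 5 mesothelial markers, led by Wt1, Lrrn4 rose and Wt1 fell, with sums of 61.6 to 94.7 and 71.5 to 127. Wt1, with means of 61.7 and 46.1 FPKM, weighed most in these sums. Every other member had a higher mean in Wnk1d/d, and the median log2 fold change of the list was 0.99. Ovgp1 and Pax8, 2 of 5 oviduct and ciliated cell markers and the only ones tested, rose (sums of 36.9 to 58.7 and 83.8 to 141). The rest of that list had means under 1 FPKM in both genotypes, so these sums rest on Ovgp1 and Pax8. Whether oviduct tissue was present was not tested. Of 5 leukocyte, 2 urothelial and 7 liver markers tested with limma 0 were called, and at an unadjusted p under 0.05 there were 1 leukocyte marker, Ncr1, lower, and 1 urothelial marker, Upk2, higher, with sums of 183 to 336 and 199 to 233 for leukocytes, led by Lyz2, and 1.48 to 5.27 and 4.67 to 7.85 for urothelium. The part of these cell types in the results for the claudins and the other tight junction genes was not tested.

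One control stood apart. Wnk1f/f replicate 4 had a summed FPKM of 177 for 7 liver markers, of which Alb made up 77.65 FPKM and Apoa2 37.93 FPKM (both named after their values were seen), where the other controls had 9.83 to 11.8 and the Wnk1d/d mice 12.2 to 41.6, and it had the least Cldn3, Cldn7, Cldn23 and Cldn10 and the most Cldn8 and Cldn11 of all mice. Over all libraries Serpina1c was the most abundant liver marker. The number of claudins called was 4 without Wnk1f/f replicate 4, Cldn7 being lost. Without Wnk1d/d replicate 2, the mouse whose Cldn8 and Tjp1 were nearest to the controls, 5 were called. In Wnk1d/d replicate 4 a single entry took 70.3% of the summed FPKM, and the median log2 value of the tested genes was 3.79 to 3.82 in all libraries.

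The table held 15 further claudin entries. Of these 3 were tested, namely Cldn5 (mean 41.7 FPKM over all libraries), Cldn25 (26.8 FPKM), a symbol that has been used for more than 1 gene, and Cldn15 (11.5 FPKM). Cldn13, Cldn16 and Cldn22 were listed at 0 in all 9 libraries, and the other 9 had means of 1 FPKM or less in both genotypes.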

How the data were processed

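RNA from the whole uterus of 9 mice, 4 Wnk1f/f and 5 Wnk1d/d, was sequenced by the authors as paired 75-base reads. The authors filtered reads on quality, aligned them to mm10 with TopHat2 2.0.4 and deposited 1 table of FPKM values made with Cufflinks (version 2.0.2 in the submitters' processing notes), with each mouse in its own column. The gene annotation is not given in the sources used here. Depth is unknown from FPKM, so no counting intervals were given, and the step that 1 fragment makes in low values differed by up to 1.35 times between libraries (read from 12 entries).

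The members and gene lists were chosen with earlier results of these data known. FPKM was used as deposited, as log2(FPKM + 1) with a pseudocount of 1, and 14728 genes, those whose mean exceeded 1 FPKM in either genotype, were compared, unpaired, with limma 3.58.1 in R 4.3.3 (eBayes with trend, two-sided, Benjamini-Hochberg adjustment, threshold 0.05). The fold criterion was a change of 1.5 times in mean FPKM. Cuffdiff, which the study used, needs aligned reads and was not rerun. The step was tested on simulated data. Replicate numbers, taken from the titles, mark different mice in the 2 genotypes. All claudins listed above were named, with the junction and claudin-binding genes of smallest adjusted p, Ocln, Tjp1, Epcam, Wnk1 and Wnk4 in any case, and the most abundant gene of each cell type list. Results for some genes are not reported here, although the counts and sums of their lists include them. Marker genes beyond these were named after their values were seen. Alternatives were other pseudocounts (0.1, 0.01), other filters (none, 5 FPKM), scaling to the median, to quantiles or to epithelial markers, limma without trend, robust and with library weights, a replicate block, a ratio of 2 and leaving out each library. Scaling to Epcam was chosen after seeing the data. Figures and ratios were made with pandas 2.3.3, NumPy 2.4.6 and matplotlib 3.10.9 in Python 3.11.15.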

Additional observations from a re-analysis of the deposited data

Results flagged for a closer look

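Among the 20 groups looked at, each 1 claudin in 1 genotype, 1 value stood apart from the others of its group. Cldn1 in Wnk1d/d replicate 2 was 2.55 FPKM, where the other 4 Wnk1d/d mice had 3.78 to 3.98 FPKM, and the gap was 0.860 of the group's whole range. Chance alone flags about 1 in 20 groups of this kind. Without that mouse Cldn1 was still called.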

How the results depend on the processing

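Over 21 alternatives Cldn1, Cldn8 and Cldn11 were lower and Cldn7 and Cldn10 higher in Wnk1d/d wherever they were tested, and Cldn1 and Cldn8 were called in 20, Cldn10 in 19 and Cldn7 in 10 of them, and Cldn11 in 19 of 20, since a filter at 5 FPKM removed it. The number of claudins called was 4 to 5 and the number also past the ratio 3 to 5 when each library was left out in turn. A ratio of 2 left 2, Cldn8 and Cldn11. With the replicate block the counts were 0 and 0, the adjusted p of the 5 running from 0.0626 to 0.1, while the calls over all genes went from 3249 to 220. The numbers are taken from the titles, no label pairs the mice, and Wnk1d/d replicate 5 has no partner. Deviations from the group means of same-numbered mice had correlations of -0.27 to 0.022, which cannot exclude a pairing in groups this small. Leaving out a library gave 1739 to 4216 calls over all genes, and the cause was not tested. Cldn10 lost its call to scaling to epithelial markers, and Cldn7 to that, to Epcam (0.0765), quantile normalization (0.0638), no filter (0.0596) and library weights (0.0532). Cldn4 was called after scaling to epithelial markers and to Epcam (-0.44). The log2 fold change of Cldn3 turned to -0.29 with epithelial scaling, -0.10 with Epcam, -0.052 with quantile normalization and -0.079 without Wnk1f/f replicate 4 (up to 0.27 without replicate 2), that of Cldn12 to -0.33 and -0.13 with the 2 scalings, and that of Cldn23 to -0.29 and -0.10 with the 2 scalings and -0.091 without Wnk1f/f replicate 4 (up to 0.31 without replicate 2). Scaling to Epcam moved the median of all genes to -0.22, with 10.9% of calls higher. FPKM without counts sets no limit for Cldn2 and Cldn11, the lowest claudins.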
